A study of Mus musculus with 4 samples.

Results

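The comparison described here sets bone marrow cells of mice lacking both Btg1 and Btg2 (genotype Btg1-/-;Btg2-/-, dKO) against those of wild-type mice (WT) within the B220+ CD43+ fraction, sorted by flow cytometry from marrow flushed out of tibia and femur. It covers every probe of an Illumina MouseRef-8 expression array that was detected, with a detection score above 0.99, on at least 1 of the 2 CD43+ arrays. That left 11711 of 25697 probes, which represent 8631 of 17916 genes. The labels give both genotypes the strain C57BL6/J and equate the CD43+ fraction with Hardy fractions A to C, the pre-pro-B and pro-B stages, and its CD43- counterpart with fractions D to F, the later B-cell stages. Each genotype and fraction was measured on 1 array, 4 in all, so no difference below has a replicate check, a test or a p-value. The labels do not state age, sex or how many animals stand behind an array.

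BTG1 and BTG2 are small antiproliferative proteins that have no catalytic activity of their own. They bind the CCR4-NOT deadenylase, which shortens the poly(A) tails of mRNAs, and the arginine methyltransferase PRMT1, and through such partners they influence mRNA stability and transcription. In the marrow, EBF1 together with E proteins and PAX5 switches on the B-cell program. B220, the marker of the sort, is also carried by plasmacytoid dendritic cells and by some natural killer (NK) lineage cells.

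Values are given on 2 scales. A signal is the mean bead intensity of a probe before normalization, with the SE over its beads. A log2 difference is dKO minus WT after background correction and quantile normalization, so a negative value means lower in dKO. The bead SE covers the reading of the chip and neither animals nor RNA preparations. The dKO arrays were brighter (mean signal 662.1 in CD43+ and 648.1 in CD43- cells, against 550.7 and 555.2 in WT), and normalization removed that offset. Gstm1, with nearly equal signals of 288.4 in WT and 288.2 in dKO, therefore had a log2 difference of -0.39. A median of 38 to 39 beads stood behind a probe on each array, and 42.8% (WT) and 43.3% (dKO) of probes were detected in CD43+ cells.

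The targeted genes were read first. Btg1 gave signals of 8610 ± 276 in WT CD43+ cells and 3459 ± 102 in dKO CD43+ cells, a log2 difference of -1.71 (bead SE 0.06), and its other probe gave -2.05. No array detected Btg2 (signals from 138 to 156), so its loss could not be read. Where the probes lie relative to the deleted parts is not known here, and the remaining Btg1 signal does not check the genotype. Ptprc, which encodes the protein that carries B220, gave 391 ± 19.9 in WT and 572 ± 30.6 in dKO. Spn, which encodes CD43, was close to the detection limit at 165 ± 5.95 and 180 ± 8.90 (log2 difference 0.17, bead SE 0.32). Dntt, the terminal transferase of pro-B cells, was bright in both genotypes (2307 ± 72.9 and 2684 ± 123) and dimmer in CD43- cells (241 in WT and 333 in dKO), in the direction the fraction labels imply. Xist, transcribed from the inactive X, was at 0.28 by one probe and 1.99 by its other probe, and the Y-linked Ddx3y was detected in both genotypes at 0.12 (791 and 1124). Whether the animals' sexes differed between the arrays was not tested.

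Of the genes compared, 150 (1.74%) had a higher level in dKO by 2-fold or more and 173 (2.004%) a lower one. Together they make 3.74% of the 8631 genes, and that share is the background for the counts below. At a threshold of 1.5-fold, 788 genes were higher (9.13%) and 665 lower (7.70%), 16.8% in all. Under median scaling in place of quantile normalization 70.4% of the genes past 2-fold were on the higher side, against 46.4% here, and the median of all genes moved from 0.04 to 0.22. Over single probes, 188 were at least 2-fold higher (1.61%) and 280 lower (2.39%), 4.00% of 11711. Over all genes 54.2% lay above 0 and 45.6% below. Differences of at least 4-fold were on the lower side for 24 genes (0.278%) and on the higher side for 5 (0.0579%), 0.336% together. A gene detected on 1 of the 2 arrays has only a bound, taken against the detection limit of the dim array. With such genes at their bound, 101 were higher (1.17%) and 124 lower (1.44%), 2.61% in all. Of the 323 genes past 2-fold, 317 had the same sign in the authors' RMA values. A second detected probe existed for 56 of them, and it lay on the same side for 50 and past 2-fold for 22. Of the 323 genes, 72 belonged to the 61 gene families and pathways examined, which held 1178 of the 8631 genes compared.

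The lower genes were led by those of the specific (secondary) and gelatinase (tertiary) granules of neutrophils. These proteins, among them lactoferrin, lipocalin 2 and the cathelicidin precursor, are stored during neutrophil maturation, and C/EBP family factors are known to drive their genes. The promoters of 4 of the brighter ones are shown because these genes led the lower side of the comparison. The sequences are RefSeq's on GRCm38.p6, run from 250 bases before to 50 bases after the gene start and are written 5′ to 3′ on the gene's strand. Capitals mark matches to the C/EBP motif TTGCNNAA on either strand. Ltf lies at chr9:111019042-111019341 on the plus strand, Lcn2 at chr2:32387690-32387989 on the minus strand, Ngp at chr9:110419558-110419857 on the plus strand and Camp at chr9:109849407-109849706 on the minus strand.
Ltf: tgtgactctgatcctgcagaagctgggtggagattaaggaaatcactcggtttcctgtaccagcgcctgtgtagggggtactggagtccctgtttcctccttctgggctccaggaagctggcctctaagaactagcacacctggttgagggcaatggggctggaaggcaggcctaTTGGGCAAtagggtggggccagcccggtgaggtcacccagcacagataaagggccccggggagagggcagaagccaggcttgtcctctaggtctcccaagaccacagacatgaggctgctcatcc
Lcn2: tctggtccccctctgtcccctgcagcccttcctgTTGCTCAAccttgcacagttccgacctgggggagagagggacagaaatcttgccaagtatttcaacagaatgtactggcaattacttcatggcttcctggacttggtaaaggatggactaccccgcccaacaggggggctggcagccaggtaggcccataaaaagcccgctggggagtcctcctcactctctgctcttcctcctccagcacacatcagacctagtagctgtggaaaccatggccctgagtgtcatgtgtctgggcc
Ngp: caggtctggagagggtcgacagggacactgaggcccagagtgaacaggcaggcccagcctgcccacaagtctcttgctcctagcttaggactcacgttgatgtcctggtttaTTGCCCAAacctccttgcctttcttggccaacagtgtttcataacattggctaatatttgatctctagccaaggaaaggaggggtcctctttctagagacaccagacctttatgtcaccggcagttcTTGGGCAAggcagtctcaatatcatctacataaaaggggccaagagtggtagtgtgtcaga
Camp: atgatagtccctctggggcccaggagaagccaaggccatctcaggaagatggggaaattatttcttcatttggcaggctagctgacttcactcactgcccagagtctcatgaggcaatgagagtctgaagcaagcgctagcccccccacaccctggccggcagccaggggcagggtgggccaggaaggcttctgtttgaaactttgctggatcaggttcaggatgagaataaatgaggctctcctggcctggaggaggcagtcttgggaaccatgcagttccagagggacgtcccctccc

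The Ltf match starts at position -75 and the Lcn2 match at position -216 relative to the gene start. Ngp holds 2 matches and Camp none. The promoters of Lyz2 and Chil3, granule genes that were also bright and lower, held no match and are not printed. Of the 15 granule genes compared, 11 had a promoter in the table, and 6 of these (54.5%) held the motif. It was also in 4 of 12 promoters (33.3%) of the killer-cell lectin-like receptors, most of which had higher levels in dKO, and in 3 of 20 of the EBF1 target and pro-B genes. The motif was in 8.29% of the 6718 promoters of the genes compared and in 10.8% of all 32851 promoters of the table. None of the 11 held the other motifs searched on both strands (the EBF motif, heat-shock factor TTCNNGAA and CREB/ATF TGACGTCA), so no match overlapped another. A match is a string of letters and does not show that a factor binds there.

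All 15 detected granule genes of 24 on the array had negative log2 differences, and 13 of them were past 2-fold (12 when bounds replace measured values), for a list median of -2.50 against 0.04 over all genes. Lactoferrin (Ltf) gave signals of 3357 ± 129.7 in WT CD43+, 844 ± 32.0 in dKO CD43+, 880 ± 32.0 in WT CD43- and 864 ± 36.6 in dKO CD43- cells, and its log2 difference in CD43+ cells was -2.62 (bead SE 0.09). Lcn2, encoding the siderophore-binding lipocalin 2, gave 2026 ± 77.9, 483 ± 21.8, 595 ± 30.0 and 494 ± 17.6 in the same order, a difference of -2.89 (0.11). Camp, the cathelicidin precursor, gave 2907 ± 70.3, 799 ± 31.7, 858 ± 35.3 and 893 ± 33.5, a difference of -2.50 (0.08). In each case the WT CD43+ array stood far above the other 3 arrays, which lay close together. Ngp, the neutrophilic granule protein, was likewise highest on the WT CD43+ array (1303 ± 47.4, 361 ± 14.6, 398 ± 15.7 and 339 ± 13.4) and a difference of -2.79 (0.11). Haptoglobin (Hp, -2.63), the chitinase-like Chil3 (-2.59), lysozyme 2 (Lyz2, -2.56) and the resistin-like Retnlg (-2.52) followed. Cd177, a neutrophil surface protein, was at -2.04, the gelatinase Mmp9 at -1.34 and the leukotriene B4 receptor Ltb4r1 at -1.10. Wfdc21 and Orm1 were detected in WT alone, with bounds of -0.80 and -0.25. Anxa1, which many other cells also express, was at -0.37. The list also counts Ear2 (-2.36), an eosinophil-associated ribonuclease gene described below.

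Of these 15 genes, 14 had their highest level on the WT CD43+ array. The median log2 level was 8.35 there, 6.34 in dKO CD43+, 6.78 in WT CD43- and 6.48 in dKO CD43- cells. Mmp8, Olfm4, Itgam, Cybb, Adam8, Padi4, Stfa1, Stfa2 and Stfa3 were not detected in either genotype. In bulk samples, fewer cells of a type and less RNA per cell cannot be told apart. In CD43- cells the difference between the genotypes for the same list had a median of -0.37, with 10 of 13 genes below 0.

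**Figure D1:**
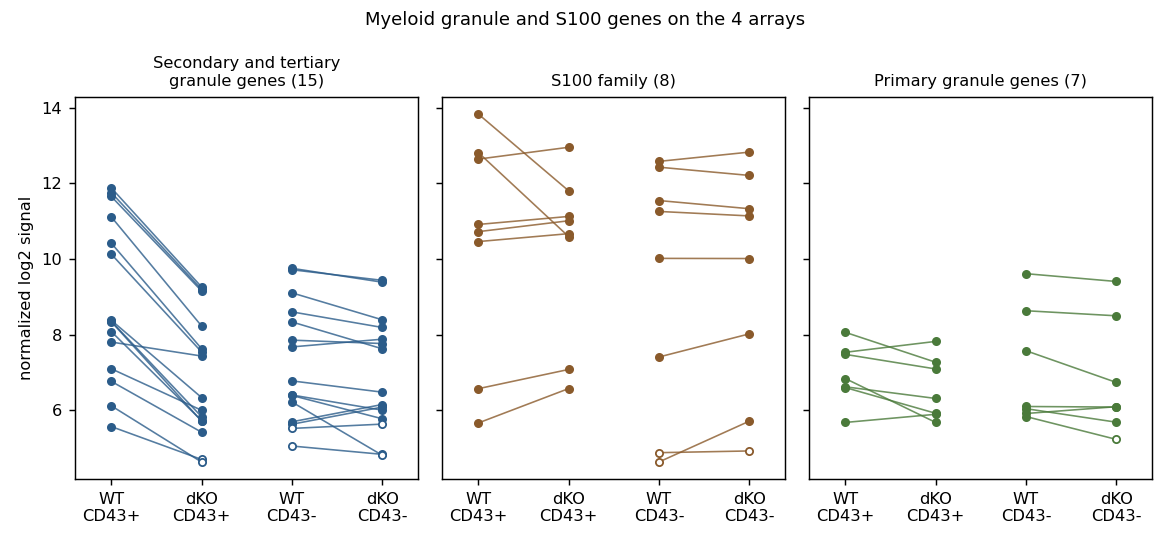
Normalized log2 signal (y axis) of the detected secondary and tertiary granule genes, S100 genes and primary granule genes on the 4 arrays (x axis), where each line joins the WT and dKO value of a gene within a fraction. Filled points are detected values and open points are not. The granule genes are high on the WT CD43+ array (median 8.35) and lower on the other 3 (6.34 to 6.78), and in the S100 panel 2 of 8 lines slope steeply down from WT to dKO CD43+ cells.

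The S100 family split. S100a8 and S100a9, which form the calprotectin dimer of neutrophil and monocyte cytosol, were at -2.03 (bead SE 0.06) and -2.22 (0.08). S100a8 gave signals of 12959 ± 293 in WT CD43+, 4272 ± 129 in dKO CD43+, 4863 ± 157 in WT CD43- and 5370 ± 192 in dKO CD43- cells, again with the WT CD43+ array apart from the rest. The other 6 detected members lay above 0, from 0.21 for S100a13 and S100a6 to 0.91 for S100a4. The family's median of 0.25 thus has the opposite sign to its largest members.

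Genes of the primary (azurophil) granules, which are made earlier in neutrophil development, differed less. Of 7 listed genes detected, 5 were below 0 and 1 was past 2-fold, with a median of -0.39. That median is the value of Gstm1, a glutathione transferase gene counted in this list, whose signals were nearly equal in the 2 genotypes. Neutrophil elastase (Elane) was at -1.16, myeloperoxidase (Mpo) at -0.79, cathepsin G (Ctsg) at -0.68 and proteinase 3 (Prtn3) at -0.31, while the tetraspanin Cd63 (0.22) and the protease inhibitor Serpinb1a (0.29) were above 0.

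Among myeloid receptors and transcription factors, 5 of 13 were lower by 2-fold or more and none higher, for a median of -0.86, or -0.52 with bounds. The formyl peptide receptor Fpr2 was at -2.18 (signals 359 and 195), the receptor Trem3 at -1.40, the GM-CSF receptor chain Csf2ra at -1.17 and the factor Cebpb at -1.01. Cebpe, which directs the late steps of granulocyte maturation, was detected in WT alone (214 against 145), at least 2.38-fold lower. Other members of the list lay nearer 0, among them the adaptor Tyrobp at -0.02 on bright signals (6524 and 8105), Alox5ap at 0.13 and the factor Spi1 at 0.26. Cebpa, Cxcr2, Fpr1, Trem1, Clec4d, Clec4e, Clec5a, Il1r2, Cd14 and Alox5 were not detected in either genotype.

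Some families were looked up after their values had been seen. The 4 detected eosinophil-associated ribonucleases were all at least 2-fold lower. Ear2 gave 364 ± 13.95 in WT and 188 ± 8.78 in dKO, and the transcripts listed as EAR4, EAR12 and Ear10 were detected in WT alone (bounds -2.18, -1.51 and -1.29). These genes are near-identical, and 1 probe may read several. Of 5 detected CLEC4 and CLEC7 lectins, Clec4a3 (bound -1.65), the beta-glucan receptor Clec7a (bound -1.23) and Clec4a1 (bound -0.95) were detected in WT alone, Clec4b1 in dKO alone (bound 0.04), and Clec4g was at -0.55. Of 3 detected CD300 receptors, Cd300lf was at -1.02, and Cd300lg (bound 0.42) and Cd300a (bound 0.18) were detected in dKO alone. Ifitm6 was at -2.31, while Ifitm2 and Ifitm3 of the same family were at -0.55 each. Of the 6 eosinophil, basophil and mast cell markers compared, 4 were below 0, 3 of them by at least 2-fold, and 1 lay past 2-fold on the other side. Their median was -1.22. Ear2 is among the lower ones, so its single value is counted in this list, with the ribonucleases and with the granule genes. The protease gene Prss34 and the histidine decarboxylase gene Hdc were detected in WT alone (bounds -1.72 and -2.06), the eosinophil granule gene Prg2 was at -0.37 and its relative Prg3 at 1.04, and Cma1 was detected in dKO alone, too close to background for a fold. Epx, Mcpt8, Cpa3, Fcer1a and Ms4a2, which define eosinophils, basophils or mast cells, were not detected in either genotype.

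Most of the listed monocyte and macrophage markers went the other way from the granule genes. Of 15 detected, 11 were above 0 and the median was 0.53, or 0.35 with bounds. The gene listed as lysozyme 1 (Lyz1) was the exception past 2-fold, at -2.16 (bead SE 0.07), with signals of 12296 ± 367 and 3789 ± 138. Its identifier on the array is LYZ. It gave 1682 in WT and 1859 in dKO CD43- cells, so it was highest on the WT CD43+ array, as Lyz2 was. Whether its probe reads Lyz1 apart from Lyz2 was not tested. The fractalkine receptor Cx3cr1 was at 1.30 (signals 179 and 289) and the haemoglobin scavenger receptor Cd163 at 1.03 (212 and 350). Ms4a6c and the adhesion molecule Vcam1 were detected in dKO alone, with bounds of 0.87 and 0.86. The TAM receptor Axl was at 0.88 and the iron exporter Slc40a1 at 0.70, and the macrophage marker Adgre1 at -0.28. Ccr2, Marco, Mrc1, Mertk and Cd5l were not detected. The list's summed level was 15.68 (log2) in WT and 15.45 in dKO, led by the bright Ctsb, Ly6c1 and Lyz1. Lyz2 (-2.56) was counted with the granule genes instead. Tgfbi (-1.46), Ccl9 (-1.49) and Apoe (-1.37), which macrophages can also express, were lower and are in no list. Unlisted genes of such cells were not counted in either direction, so the direction given is that of the listed genes.

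Erythroid genes were lower on balance, with 11 of 13 below 0 and a median of -0.20. Alpha globin (Hba-a1) was at -0.95 on signals of 9229 and 6467, the factor Nfe2 at -0.88 and the haem synthesis enzyme Alas2 at -0.80. Beta globin (Hbb-b1, -0.14) and band 3 (Slc4a1, -0.14) were close to 0, and Gata1 and Epor were not detected. The median of this list kept its sign under every setting tried, from -0.28 to -0.06. Of the 13 platelet and megakaryocyte genes on the array 2 were detected, neither on both arrays.

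Genes of NK cells were higher in dKO CD43+ cells, mostly by less than 2-fold. The killer-cell lectin-like receptors bind MHC class I and related ligands and set the threshold of NK killing. Of 17 detected in CD43+ cells, 16 were above 0 (94.1%, against 54.2% of all genes), none was 2-fold higher, and the median was 0.51. The activating receptor chain Klrk1 (NKG2D) was at 0.72, Klrb1a at 0.91, Klra10 at 0.85, Klra16 at 0.80, the inhibitory partner chain Klrd1 (CD94) at 0.35 on signals of 5500 and 8889, and Klre1 at 0.69 (1124 and 2283). Klra13-ps, listed as a pseudogene, was the exception at -1.39 (377 and 255). Of these 17 genes, 14 had their highest level on the dKO CD43+ array, and the median log2 level was 8.74 there, 8.30 in WT CD43+ cells and 5.40 and 4.89 in WT and dKO CD43- cells. Klra genes form a cluster of near-identical copies, so values of single members are uncertain.

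NK effector and regulator genes showed 22 of 27 above 0 with a median of 0.40, or 0.31 with bounds. The T-box factors Eomes and Tbx21, which direct NK maturation, were at 1.10 and 0.85. Eomes gave 243 ± 8.33 in WT CD43+ and 452 ± 19.5 in dKO CD43+ cells and was not above 157 in CD43- cells. Cd160, an activating receptor, was at 1.09 (388 and 876), the IL-2 receptor chain Il2rb at 0.84, the IL-18 receptor chain Il18r1 at 0.82, the granule protein Nkg7 at 0.40 (2756 and 4751) and the E-protein inhibitor Id2 at 0.70, with 1.0 on its other probe. Cd244a (2B4) was past 2-fold on the other side at -1.03, and the chemokine Ccl3 was at -0.69. Gzmb and Ncam1 were not detected.

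T-lineage genes followed the same direction, with 20 of 24 above 0 and a median of 0.38. Cd6, a co-receptor of T cells, was the member past 2-fold, at 1.45 (bead SE 0.14) and 1.42 on its other probe. It gave 236 ± 10.4 in WT and 514 ± 14.9 in dKO CD43+ cells and 136 and 137 in CD43- cells. The T-cell factors Gata3 and Tcf7 were at 0.91 and 0.90, the T-cell receptor chains Cd3d and Cd3g at 0.79 and 0.75 and Cd3e at 0.19, Thy1 at 0.74 (2034 and 4441), while Cd4 was at -0.69. Cd8a, Themis, Trat1 and Ptcra were not detected in either genotype. The summed log2 level was 14.10 in WT and 14.55 in dKO for the T-lineage list, 14.34 and 14.76 for the NK effector list and 14.10 and 14.54 for the lectin-like receptors, and their part in other differences was not tested.

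In CD43+ cells, plasmacytoid dendritic cell genes were among the brightest in both genotypes and differed little. Siglech, a receptor that marks these cells, gave 11233 ± 375 in WT CD43+, 14011 ± 428 in dKO CD43+, 228 ± 11.4 in WT CD43- and 1176 ± 49.2 in dKO CD43- cells, a difference of -0.06 in CD43+ cells. Cox6a2 gave 15496 and 24509 in CD43+ cells, a difference of 0.52. All 21 listed genes compared were detected on both CD43+ arrays, 12 lay above 0 and the median was 0.12, a value 0.07 above that of all genes, or 0.01 below it under median scaling (-0.01). Cd209d, a C-type lectin, was the member past 2-fold at -1.30 (bead SE 0.09), with signals of 1741 and 1030. The tissue kallikreins Klk1b27 (-0.72), Klk1b4 (-0.50) and Klk1 (-0.41) were lower as well. Cd209a, of the conventional dendritic cell list, was at -0.82, whereas 8 of the 10 genes of that list lay above 0.

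Transcription factors of the B lineage were higher on balance: 23 of 30 were above 0, with a median of 0.29 that kept its sign under every setting tried. Fli1 was at 1.31 (202 ± 7.13 and 365 ± 13.5) and Runx1 at 1.19 (294 ± 12.6 and 633 ± 23.3), the 2 factors past 2-fold on the higher side. Both act from the stem cell stage on, and Runx1 is needed for normal early B-cell development. The repressor Zeb2 was at 0.86, the E protein Tcf12 (HEB) at 0.77, Bach2 at 0.71, the ETS factors Elf1 and Ets1 at 0.67 and 0.60, Ikzf1 (Ikaros) at 0.48, Mef2c at 0.41 and Ebf1 at 0.32 (481 ± 32.8 and 730 ± 35.4). Tcf3 (E2A), the main E-protein gene of early B cells, passed detection in WT alone (189.6 against 160.2, bound -0.76), and the repressor Gfi1 was at -0.52. Pax5 was not detected in CD43+ cells of either genotype. Of the inhibitors of E proteins, Id2 was at 0.70 and Id3 at 0.42, and Tcf4 (E2-2), bright at 8340 and 11983, was at 0.29.

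Targets of EBF1 and other pro-B genes had no member past 2-fold among 27 compared and a median of 0.05, close to that of all genes. The linker Blnk was at -0.51 with -0.10 on its other probe, the kinase Syk at -0.41, Vpreb3 at -0.33 and the surrogate light chain Vpreb1 at -0.16 (13550 ± 691 and 14509 ± 550). On the higher side the chemokine receptor Cxcr4 was at 0.79 (1470 and 3254), Ralgps2 at 0.72, Ly6d, which marks B-lineage priming, at 0.69, the recombinase gene Rag1 at 0.66 (749 and 1479), Bst1 at 0.61 and the IL-7 receptor chain Il7r at 0.49 (3105 and 5666). The pre-BCR and BCR signalling list had 15 of 32 above 0 and no member past 2-fold, with a median of -0.03 that turned to 0.18 under median scaling and to 0.04 in the authors' RMA values. Within it the adaptor Dok3 was at -0.69, the kinase Fyn at -0.63 with 0.53 on its other probe, and the PI3-kinase subunit Pik3r1 at 0.74 on both of its probes. The V(D)J recombination list split evenly, with 9 of 18 above 0 and none past 2-fold. Its members included the nuclease gene Dclre1c (Artemis, -0.69, with 0.09 on its other probe) and the polymerase gene Polm, detected in WT alone (bound -0.64).

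In the cytokine pathway that supports these cells, 18 of 28 genes of IL-7 receptor, JAK-STAT and SOCS signalling lay above 0, with a median of 0.29 or 0.19 with bounds. Stat3, which transmits IL-6 family and IL-10 signals, was at 1.48 (bead SE 0.11) and 0.93 on its other probe. It gave 664 ± 32.9 in WT CD43+, 2155 ± 104 in dKO CD43+, 642 ± 33.8 in WT CD43- and 1497 ± 55.4 in dKO CD43- cells, so both dKO arrays stood above both WT arrays. Il6st (gp130), the shared IL-6 family receptor, was at 1.26, the kinase Jak1 at 0.92 (350 and 695), the inhibitor Socs5 at 0.70, Stat5a at 0.67 and Stat4 at 0.59. Of the BCL-2 family, 9 of 18 genes were above 0 and none was past 2-fold. The survival gene Bcl2 was at 0.94 with 0.42 on its other probe and Mcl1 at 0.37, while the death effector Bax was at -0.43 and Pmaip1 (Noxa) was detected in WT alone (bound -0.49).

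Interferon-stimulated genes were modestly higher, with 29 of 37 above 0, 2 past 2-fold and a median of 0.23. The nuclear body protein gene Sp100 and the mitochondrial kinase Cmpk2 were each at 1.04, the GTPase Irgm2 at 0.90, Ifit3 at 0.74 and Rsad2 (viperin) at 0.70, whereas Oas1a was detected in WT alone (bound -0.12). Their regulator Irf7 was at -0.19. In CD43- cells Sp100 was at -0.38 and Cmpk2 at 0.41. The DNA sensor Aim2 was at 1.12 (228 and 411) in CD43+ cells, while Ifi203 of the same family was at -0.36. Among homing receptors, Gpr183 (EBI2), an oxysterol receptor that positions B cells, was at 1.06, Cxcr4 at 0.79 and Ccr7 at 0.81. Genes of MHC class II presentation were slightly lower, with 9 of 14 below 0 and a median of -0.24, although their activator Ciita was at 0.54.

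Immediate-early genes, which cells induce within minutes of a stimulus and whose short-lived mRNAs are deadenylated quickly, pointed both ways. Of 29 detected, 17 were below 0 and the median was -0.16. Ppp1r15a (GADD34) was at -1.19 and Fosb at -1.15, the 2 past 2-fold, and Junb was at -0.68. On the other side Egr2 was at 0.87 and Klf4 at 0.81, with 1.05 on its other probe. The promoters of 2 of 24 such genes (8.33%) held the CREB/ATF motif named above, against 3.25% of the genes compared. The p53 pathway had no member past 2-fold, and its median of -0.13 turned to 0.10 under median scaling. The damage recognition gene Ddb2 was at -0.89, the death receptor gene Tnfrsf10b at -0.87, Gadd45b at -0.74 and Trp53 itself at -0.56.

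Of the BTG/TOB family itself, Tob1 was at 0.25, Tob2 at -0.07 and Btg3 was detected in WT alone with a bound of -0.05. Btg2 and Btg4 were not detected. The mRNA deadenylation, decapping and decay list, which holds the CCR4-NOT subunits, had 23 of 49 genes above 0, none past 2-fold and a median of -0.01, which became 0.22 under median scaling, the shift of all genes. Its largest differences were the decapping activator Ddx6 at 0.72 with 0.40 on its other probe, the exosome nuclease Dis3 and the argonaute Ago2 at 0.67 each, Cnot11 at 0.48 and the nonsense-mediated decay factor Smg6 at -0.60. The AU-rich element binding protein Zfp36, which recruits CCR4-NOT to short-lived mRNAs, was at -0.66 (3406 and 2884). All 8 protein arginine methyltransferases compared were below 0, none by 2-fold, with a median of -0.23 that kept its sign under every setting (-0.26 to -0.02). Prmt7 was at -0.51, Prmt5 at -0.47 and Prmt1, the BTG partner, at -0.26 (4987 and 5269).

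Genes of the cell cycle differed little in CD43+ cells. DNA replication genes had 25 of 48 above 0, none past 2-fold and a median of 0.02, and mitosis genes had 14 of 37 above 0 and a median of -0.08 that turned to 0.11 under median scaling. Dnmt1 (0.59) and Pole (0.69) were the highest replication genes and Mcm7 (-0.78) the lowest. In CD43- cells the same 2 lists had medians of 0.53 each, with 43 of 48 and 35 of 36 genes above 0, and the difference between the fractions was not tested. Ccnd1 (cyclin D1) was at 0.35 in CD43+ and 2.41 in CD43- cells.

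Most replication-dependent histone genes, which are made in S phase, lay above 0. Their mRNAs normally end in a stem-loop without a poly(A) tail, and the labelling of such arrays starts from poly(A), so these probes read whatever polyadenylated histone RNA is present. Of 49 detected, 41 were above 0 (83.7%), 4 at least 2-fold higher and 1 lower, with a median of 0.33 that stayed between 0.25 and 0.55 under every setting. H2bc4 was at 1.60 (329 and 945; 0.66 in the authors' RMA values), H4c3 at 1.32 (291 ± 13.5 and 665 ± 22.1), H4c14 at 1.0 and H3c8 at 0.94, and H2ac6 was detected in dKO alone (bound 0.50). H2ac18 was at -1.08. Histone genes are near-identical, and 1 probe may read several. In CD43- cells the median was 1.22, with 27 of 49 at least 2-fold higher.

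Most genes of protein synthesis lay slightly below 0. Translation factors had 32 of 46 genes below 0, with a median of -0.07 that turned to 0.03 under median scaling. The helicase cofactor Eif4b was at -1.87 (463 ± 28.9 and 253 ± 13.4) in CD43+ and -1.82 in CD43- cells. The guanine exchange factor subunit Eif2b2 was at -1.13, and Eif3c and Eif3b at -0.86 and -0.83. Cytosolic ribosomal protein genes had 39 of 57 below 0 and a median of -0.10, negative under every setting, and Rps15a was the lowest at -0.93. Among 36 splicing proteins of the SR, hnRNP and snRNP groups, looked up after their values were seen, 24 were below 0. Hnrnph3 (-1.49) and the snRNP gene Snrnp70 (-1.24) were past 2-fold, 5.56% of the group against 3.74% of all genes.

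Among metabolic genes, those of energy production lay mostly below 0 and those of lipid synthesis mostly above. Glycolysis and pentose phosphate genes had 18 of 26 below 0 and a median of -0.16 that turned to 0.05 under median scaling. The muscle-type enolase Eno3 was at -1.02, pyruvate kinase (Pkm) at -0.97 (4426 and 2935) and G6pdx at -0.89. Oxidative phosphorylation subunits had 40 of 66 below 0, none past 2-fold, and a median of -0.08 that turned to 0.04 under median scaling, with cytochrome c1 (Cyc1) the lowest at -0.85. Cholesterol and fatty acid synthesis genes had 17 of 24 above 0, with Hsd17b7 at 0.91 and the sterol sensor Scap at 0.72.

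Chaperones were mixed. The constitutive Hsp70 gene Hspa8 gave 6946 ± 136 in WT CD43+, 4256 ± 160 in dKO CD43+, 4618 ± 118 in WT CD43- and 3268 ± 109.6 in dKO CD43- cells, a difference of -1.08 (bead SE 0.06) in CD43+ cells. Cacybp was at -1.53 and the Hsp90 co-chaperone Fkbp4 at -0.94, while Hsf2 was at 0.94 and Hspa12b was detected in dKO alone (bound 0.94). The list of 41 had a median of -0.06, or 0.07 under median scaling, and 20.6% of its promoters (7 of 34) held the heat-shock factor motif named above, against 6.68% for all genes compared. Sec24d, a coat protein of vesicles leaving the endoplasmic reticulum, was at 1.31.

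**Figure D2:**
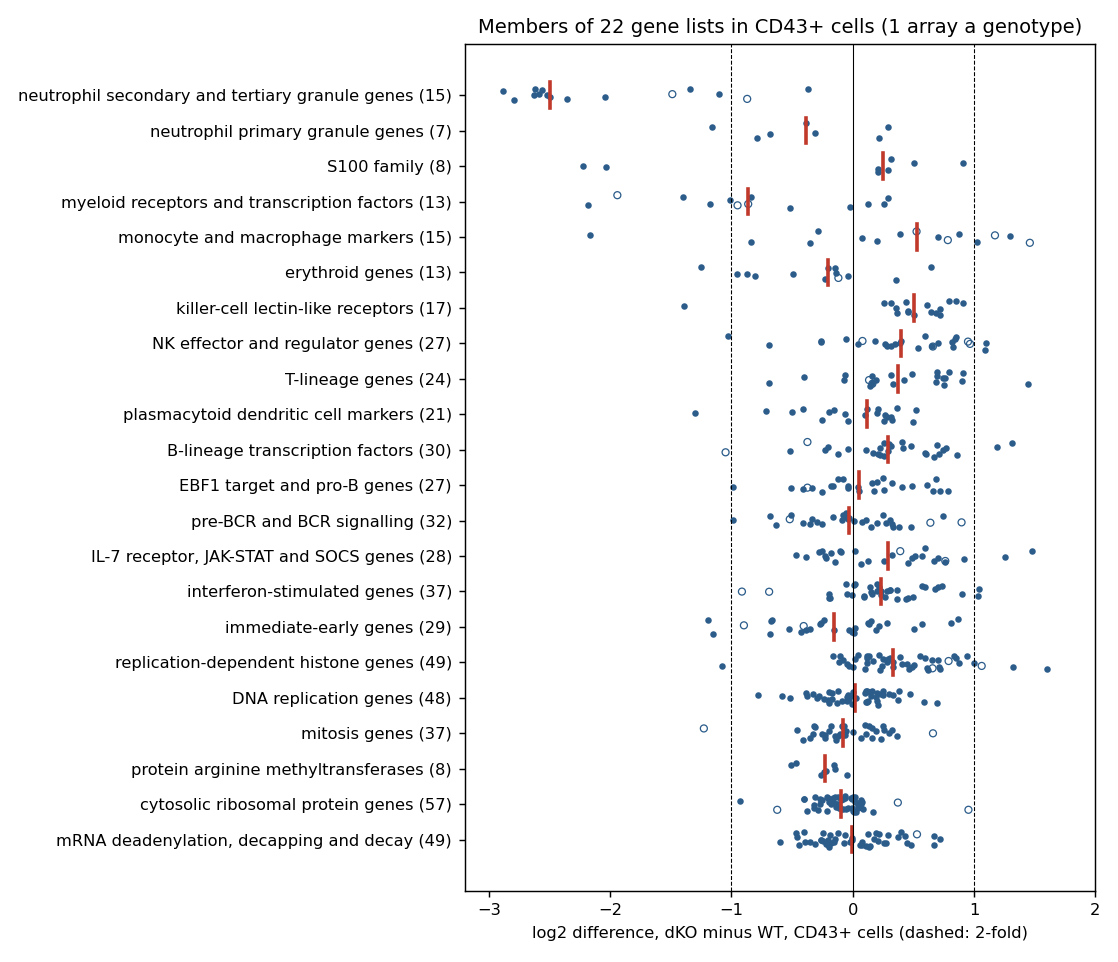
Log2 difference, dKO minus WT, in CD43+ cells (x axis) of the detected members of 22 gene lists (y axis, number compared in parentheses), with 1 point a gene, open where the gene was detected on 1 of the 2 arrays, and a red line at the list's median. The secondary and tertiary granule genes lie at a median of -2.50, and the medians of the other lists drawn lie between -0.86 and 0.53.

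Several of the largest single differences came from families in which other members differed less or went the other way. The common Fc receptor signalling chain Fcer1g gave 7546 ± 314 in WT and 136 ± 5.0, below detection, in dKO CD43+ cells (bound -7.72). The activating IgG receptors Fcgr4 and Fcgr3 were at -1.97 (370 and 210) and 1.65 (256 ± 12.3 and 655 ± 26.4). Within the SLAM family of lymphocyte adhesion receptors, Cd48 was detected in WT alone (bound -2.47), Slamf9 was at -1.27 (4180 and 2338), Cd244a, the receptor of CD48, at -1.03 and Slamf6 at 1.64. Cathepsin E (Ctse) gave 419 ± 16.1 in WT and 10324 ± 383 in dKO CD43+ cells, a difference of 4.78 (bead SE 0.10), while the other 14 cathepsin and cystatin genes compared lay between -0.97 and 0.81. The dynactin subunit Dctn1 was detected in dKO alone (bound 3.27), as was Gatad2b, a subunit of the NuRD repressor complex (bound 2.14). The other 7 NuRD genes compared were between -0.37 and 0.49. The B-type lamin Lmnb1 was at 1.51 (2578 ± 69.7 and 9228 ± 256) with 0.49 on its other probe, and its relative Lmnb2 at -0.54. The galectin gene Lgals4 was at -1.65 with -1.63 on its other probe, and Lgals3 at 0.88 (2489 and 5933). The acute-phase gene Serpina3n (bound 1.86) and G0s2, an inhibitor of lipolysis (bound 1.57), were detected in dKO alone, and the glycosyltransferase gene Gcnt2 was at 1.73, or 0.28 in the authors' RMA values.

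On chromosome 1, which carries Btg2, 34 of 448 genes compared were past 2-fold (7.59%, 17 in each direction), against 3.74% overall and 2.23% to 4.85% on the other autosomes and the X. Along gene order on chromosome 1, the share was 4.82% for the 249 genes before Btg2, 11% for the 100 nearest genes after it and 11.1% for the 99 beyond. Ctse lies 11 and Sp100 92 compared genes before Btg2. Fcgr4, Fcgr3, Fcer1g, Cd244a, Cd48, Slamf6, Slamf9 and Aim2 lie 96, 97, 100, 113, 116, 118, 124 and 128 genes after it. Among the 50 nearest compared genes on each side of Btg2, 7 of 100 were past 2-fold. Besides Ctse these were the aminopeptidase gene Rnpep (-1.34), Ivns1abp (-1.13), Niban1 (1.22) and, each detected on 1 array, Rab7b (bound 0.57), the chitinase gene Chit1 (bound 0.27) and Myog (bound -0.31). The same window around Btg1 on chromosome 10 held 4 of 100, of which the lysozyme genes Lyz2 and Lyz1 lie 24 and 25 genes after Btg1. The others were Actr6 (bound 0.77) and Mdm1 (1.12). Whether the probes of Lyz2 and Lyz1 read separate transcripts was not tested.

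**Figure D3:**
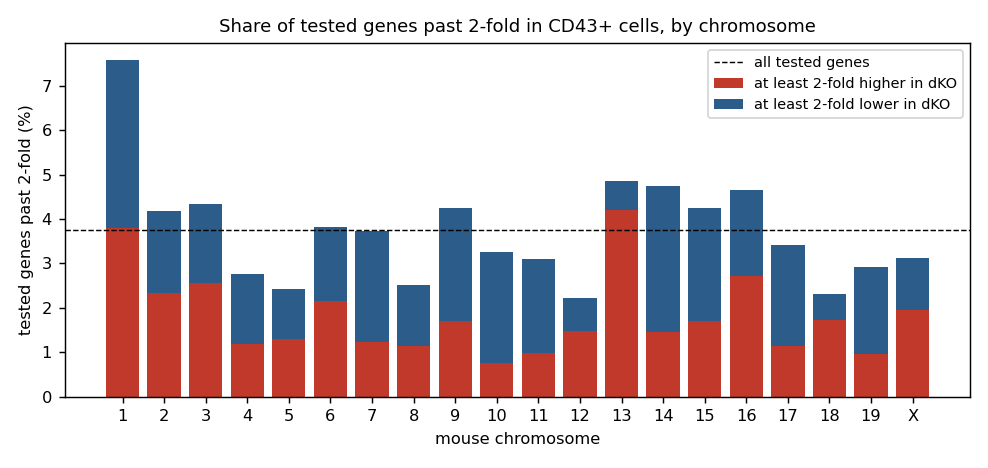
Share of compared genes past 2-fold between dKO and WT CD43+ cells (y axis, percent) by mouse chromosome (x axis), stacked into higher (red) and lower (blue), with a dashed line at the 3.74% of all genes. Chromosome 1 stands highest at 7.59%.

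The same 2 genotypes were compared on separate arrays in CD43- cells, where 6.24% of 7944 genes were past 2-fold (3.65% higher and 2.59% lower). Of the genes past 2-fold on the higher side in dKO CD43+ cells, 88 could also be compared there, of which 77 were above 0 and 38 (43.2%) at least 2-fold higher. Of 124 such lower genes, 114 were below 0 in CD43- cells and 51 (41.1%) at least 2-fold lower. Taking bounds in both fractions left 29 genes higher in both and 40 lower in both. Ctse (4.39), Fcer1g (bound -2.03), Cd48 (bound -2.27), Lgals4 (-1.71), Eif4b (-1.82), Slamf6 (1.18) and Stat3 (1.04) were past 2-fold the same way in both fractions. With bounds, no granule gene was past 2-fold the same way in both fractions. By measured values Ltb4r1 was, at -1.10 in CD43+ and -1.41 in CD43- cells, where it was detected in WT alone (bound -0.54). Ltf (-0.37), Camp (-0.28), Lcn2 (-0.71) and Ngp (-0.71) were all within 2-fold in CD43- cells. Whether a difference itself differs between the fractions could not be tested with 1 array each.

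**Figure D4:**
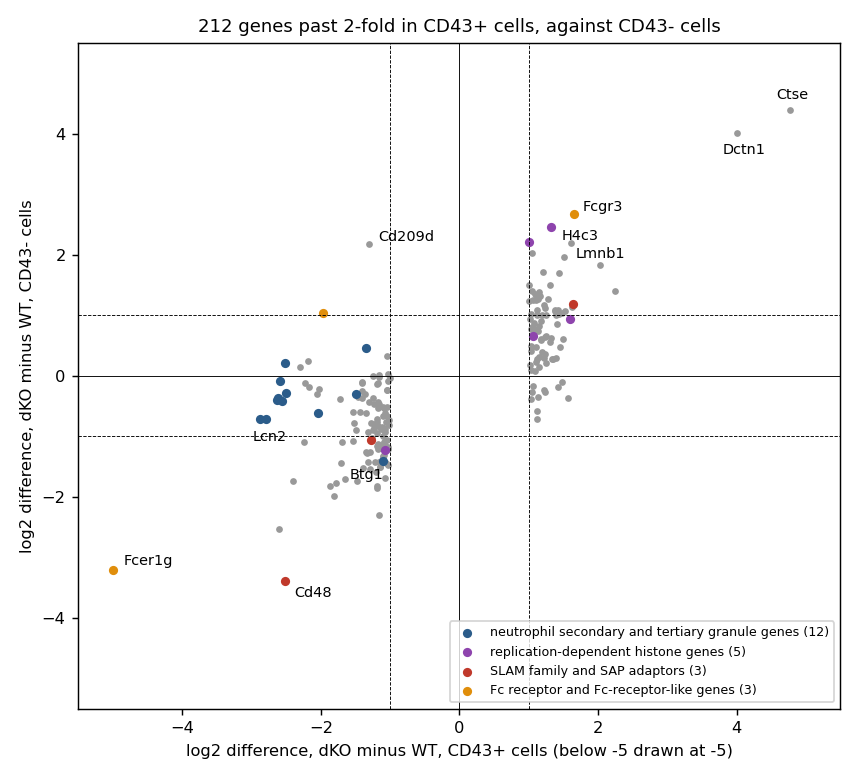
Log2 difference, dKO minus WT, of the 212 genes past 2-fold in CD43+ cells and detected in both fractions, in CD43+ cells (x axis, values under -5 drawn at -5) against CD43- cells (y axis). Each point is a gene at its measured value, dashed lines mark 2-fold and colours mark 4 gene lists. Most granule genes (blue) sit to the left and within 2-fold on the y axis, but Ltb4r1 is past 2-fold on both (-1.10 and -1.41). Ctse, Dctn1, Fcer1g and Cd48 are far from 0 on both.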

How the data were processed

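The authors deposited unnormalized GenomeStudio 1.9.0 output, per the file headers. It gives each probe's mean intensity and SD over beads, the bead count and a detection score, which the authors deposited as a fraction from 0 to 1 that rises with signal. A second table the authors deposited holds RMA values on a log2 scale and a linear ratio of the genotypes, which was not used. The series matrix equals the RMA table within 1e-06, with column medians of 3.77 to 3.79.

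Signals were processed with limma 3.58.1 (R 4.3.3): normexp with background inferred from detection, offset 16, quantile normalization over the 4 arrays, log2. Differences of dim genes are shrunk by the offset. A gene is represented by its brightest probe. Names were updated through RefSeq (GRCm38.p6): of 18138 identifiers 14300 matched a symbol, 2885 a synonym, 4 the object name of the RMA table, and 949 kept their name. No build is named in the array files, and coordinates belong to the RefSeq promoters alone.

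With 1 array a group, genes were counted by a 2-fold threshold. Members, lists and named genes were chosen with earlier results of these data known. Named are Btg1, Btg2, Ebf1 and Pax5, and the 10 largest differences each way among named genes with the same sign in the authors' RMA values. Also named are list members past 2-fold or among a list's 6 largest, all members of lists of up to 20, and neighbours of Btg1 and Btg2 past 2-fold. Other members named, such as Spn, Nkg7 or Prmt1, were chosen after their values were seen. The normalization steps were run on simulated copies of the WT CD43+ array, with bead noise added and some probes changed by known folds. The copies were about equally bright and the changed probes well above background, so dim genes and arrays of unlike brightness were not covered. Some list genes are counted in their lists but not reported here.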

Additional observations from a re-analysis of the deposited data

Results flagged for a closer look

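Cd209d, a C-type lectin of plasmacytoid dendritic cells, had a log2 difference of -1.30 between dKO and WT in CD43+ cells. In CD43- cells it was detected in dKO alone, with a bound of 1.86. The IgG receptor gene Fcgr4 was at -1.97 in CD43+ cells, and in CD43- cells it was detected in dKO alone with a bound of 0.33, which is under 2-fold. Both were picked out because their measured values lay past 2-fold in opposite directions in the 2 fractions, with 1 array a side. The difference between the fractions was not tested.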

How the results depend on the processing

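The counts of genes past 2-fold depend strongly on the background step. Against 150 higher and 173 lower genes, leaving out background correction gave 11 and 38, an offset of 50 gave 39 and 77, the authors' RMA values gave 380 and 354, genes detected on both arrays gave 82 and 106, and a threshold of 1.5-fold gave 788 and 665. Median scaling gave 309 higher and 130 lower. Quantile normalization over the 2 CD43+ arrays, the mean of a gene's probes, bounds and no detection filter stayed within 1.5 times. The cause was not tested.

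The 77 genes followed by name, a part of those named above, kept their sign under each alternative that covered them (60 under detection on both arrays). Part of this was fixed in advance. The 10 largest differences each way were taken only where the RMA sign was the same. Bounds cannot reverse a sign, and the detection settings leave a gene's own value unchanged. Outside the 77, Clec4b1 turned from 0.82 to -0.38 in the authors' RMA values. Of 59 list medians, 43 kept their sign under median scaling and 55 to 59 under the other alternatives. No paired analysis was possible because each group holds 1 array, and for the same reason no array could be left out. Signals near background limit dim genes: 378 were detected in WT alone and 472 in dKO alone.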
